A study of Mus musculus with 6 samples.

Results

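The genes described here are transcription factors of the midbrain, the pretectum and the boundary between midbrain and hindbrain: the paired-box genes Pax2, Pax3, Pax5, Pax7 and Pax8, the Engrailed genes En1 and En2, the Tal genes Tal1 and Tal2, and Pou4f1. They were followed in dissected forebrain from mouse embryos without Fezf1 and Fezf2, which encode zinc-finger proteins of early forebrain cells. The members were taken by name, as every probe set annotated to one of these symbols alone. Of the 10 genes listed, 9 have such a probe set, 16 probe sets in all of the 34958 that name 1 gene symbol. No probe set is listed for Pax2, so it is not analysed here.

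The groups were wild type and Fezf1-/- Fezf2-/- embryos, each sampled at embryonic days 9.5, 10.5 and 12.5 (written E9.5 and so on), with a single array for each of the 6 combinations. The dissected piece was the forebrain as far back as the lateral ventricles reach. Its total RNA was biotin-labelled and read on Affymetrix mouse expression arrays. Both genes are disrupted in every knockout group and neither in the wild type. The labels give no strain and no number of embryos per array, and the design holds no single knockout. With 1 array a group, a difference at one age has no replicate check. The error of the genotype effect is how the difference varied over the 3 ages, and p-values measure only the spread between these arrays.

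The midbrain forms behind the forebrain, and the labels name the dissected piece rostral forebrain. Pax2, Pax5 and Pax8, close relatives within the Pax family, act with En1 and En2 at the midbrain-hindbrain boundary, where they maintain the signals that organise the midbrain. Pax3 and Pax7 are a second related pair, active in the dorsal neural tube, where Pax7 marks the dorsal midbrain and pretectum. Tal1 and Tal2 are basic helix-loop-helix factors of midbrain GABAergic neurons, and Pou4f1, also called Brn3a, is a POU-homeodomain factor of neurons of the midbrain and medial habenula. Several of these genes also work elsewhere: Pax3 and Pax7 in neural crest, Pou4f1 in sensory ganglia, and Tal1 in red blood cell precursors and endothelium.

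The arrays differed in level as deposited, with a 2% trimmed mean from 74.3 to 162, and were quantile-normalized. Signals below are on that common scale, where the median of all values is 24.0. A gene is represented by its brightest probe set. Of 18194 genes, 11097 passed a filter on dim values, a mean log2 value above the median of all probe sets. The targeted gene Fezf2 was between 78.9 and 249.3 on the wild-type arrays and between 0.458 and 1.66 on those of the knockout. Fezf1 read 251, 143 and 174 in the wild type and 97.7, 78.4 and 49.5 in the knockout over the ages, so its knockout signal stayed above the median of all values and was less than 2-fold lower at E10.5 (-0.82). Whether its probe set lies in the disrupted part of the gene is not stated in the labels. The 5 forebrain markers used (Six3, Emx2, Lhx2, Otx1 and Hesx1) all passed the filter. Their summed signal ran from 848 in the knockout at E10.5 to 1999 in wild type at E12.5, with Hesx1 as low as 7.90.

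Among the members, 5 passed the filter: Pax3, Pax7, Tal1, Tal2 and Pou4f1. They were higher in the knockout at E12.5, all 5 by at least 2-fold, and at E9.5 their differences lay between -0.27 and 0.30 on the log2 scale. The other 4, Pax5, Pax8, En1 and En2, stayed below the filter, with no more than 1 array above the median of all values on any of their probe sets. Fold changes below are on the log2(signal + 6.50) scale, where the pseudocount of 6.50, the lower quartile of all deposited values, makes the change of dim genes look smaller. On this scale a difference of 1 is 2-fold.

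**Figure D1:**
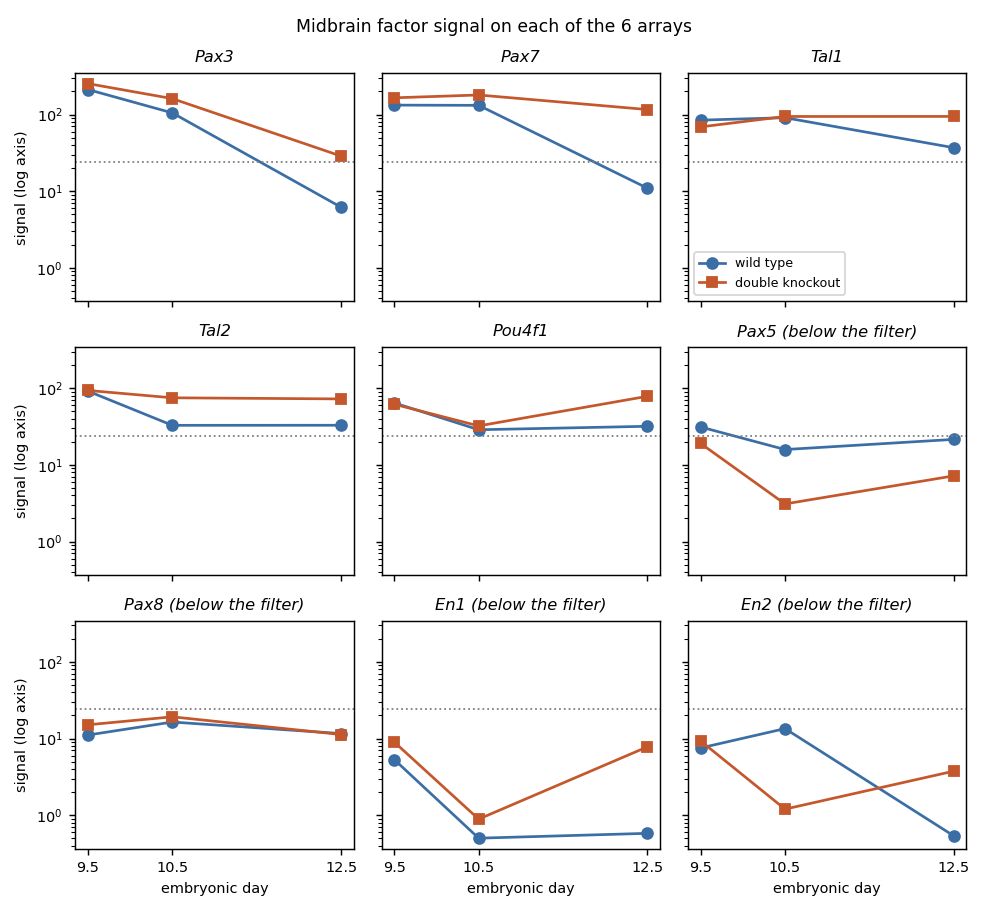
Signal of the 9 members with a probe set (brightest probe set of each, log axis) against embryonic day, 1 array a point, circles for wild type and squares for the double knockout. The dotted line is the median of all values, 24.0; Pax7 stands at 10.9 in wild type and 116 in the knockout at E12.5, while Pax8, En1 and En2 lie under the line on every array.

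Pax7, the marker of dorsal midbrain, was the member with the widest gap. Its signal on the brighter probe set was 133 in wild type and 165 in the knockout at E9.5, and 132 and 180 at E10.5. At E12.5 it was 10.9 in wild type and 116 in the knockout. Wild-type signal was at a similar height at the earlier ages and low at E12.5, whereas all 3 knockout arrays stayed above 100. The differences, knockout minus wild type, were 0.30, 0.43 and 2.81, the last a 7.03-fold difference with the pseudocount and 12.8-fold in the deposited values without it. The wild-type reading of E12.5 is under the median of all values, so the size of this ratio rests on a dim value. Of the 11097 tested genes, none had a larger positive difference at E12.5. The second Pax7 probe set, which is dimmer, gave 25.4 and 23.9 at E9.5, 45.4 and 51.1 at E10.5, and 9.63 and 30.5 at E12.5, differences of -0.07, 0.15 and 1.20. Both probe sets placed the gap at E12.5.

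Pax3, the relative of Pax7 in the dorsal neural tube, was high early and low late in both genotypes. On its brightest probe set the signal was 212 in wild type and 253 in the knockout at the first age, 105 and 161 at E10.5, and 6.18 and 28.7 at E12.5. The knockout array was the higher one at each age, by 0.25, 0.59 and 1.47, and the last value ranked 12 among all tested genes. Neither of the other Pax3 probe sets reached 2-fold. One had signals of 113 and 85.2, 86.8 and 108, and 16.0 and 22.2, with differences of -0.39, 0.29 and 0.35. The other had 67.0 and 57.8, 65.5 and 73.8, and 1.30 and 5.37, with differences of -0.19, 0.16 and 0.61. The 3 probe sets share the direction at E10.5 and E12.5 and disagree at E9.5 and on the size. At E12.5 only the knockout array of the brightest one exceeded the median of all values.

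Tal1, a basic helix-loop-helix factor that pairs with E proteins and with the adaptors Lmo2 and Ldb1, has 1 probe set. Its signal was 84.4 in wild type and 68.9 in the knockout at E9.5, 90.9 and 94.2 at E10.5, and 36.9 and 94.4 at E12.5. Knockout arrays of E10.5 and E12.5 stood at the same height, and the wild-type array of E12.5 was the lowest of the 6. The differences were -0.27, 0.05 and 1.22, so the sign at E9.5 was opposite to that at E12.5.

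Tal2, required for GABAergic neurons of the dorsal midbrain, separated the genotypes one age earlier on its brighter probe set only. Signals were 91.7 and 93.5 at E9.5, 32.8 and 74.9 at E10.5, and 32.9 and 72.5 at E12.5, wild type first. On this probe set wild type was lower from E10.5 onward, and the knockout was near its E9.5 level throughout. The differences were 0.03, 1.05 and 1.004, the last of them at the edge of 2-fold. The second Tal2 probe set read 27.8 and 30.1, 33.7 and 44.2, and 14.3 and 46.2, or 0.10, 0.33 and 1.34. It repeats the gap at E12.5 and shows a smaller one, under 2-fold, at E10.5. Its wild-type signal was not lower at E10.5 than at E9.5, and was low at E12.5 only.

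Pou4f1 had signals of 64.3 and 61.7 at E9.5, 28.7 and 32.2 at E10.5, and 31.9 and 78.5 at E12.5, wild type first. Here the knockout array of E12.5 was the highest of the 6, above both arrays of E9.5. The differences were -0.05, 0.14 and 1.15. A second, dimmer probe set lies below the filter and gave 10.9 and 16.7, 11.5 and 11.7, and 10.3 and 31.4, with 1.18 at E12.5. Its knockout array of E12.5 was likewise the highest.

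To show the promoters of members that were higher together at E12.5, the RefSeq sequence from 250 bases before to 50 bases after the transcription start is printed for Pax7, Tal1, Tal2 and Pou4f1 (GRCm38.p6). Of the 10 listed genes, 8 have an entry; Pax3 and En2 have none. Capitals mark matches, on either strand, to CANNTG (the E-box, the kind of site that basic helix-loop-helix factors bind), TAATTA and TAATCC (homeodomain cores), TATAAA (the TATA box) and GGGCGG (the GC box).
Pax7, chr4:139832919-139833218, minus strand: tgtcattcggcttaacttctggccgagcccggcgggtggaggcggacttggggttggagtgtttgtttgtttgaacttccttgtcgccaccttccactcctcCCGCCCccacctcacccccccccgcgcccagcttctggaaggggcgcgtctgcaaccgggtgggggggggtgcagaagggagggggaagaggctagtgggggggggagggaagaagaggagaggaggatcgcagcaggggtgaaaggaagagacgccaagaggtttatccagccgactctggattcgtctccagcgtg
Tal1 first start, chr4:115056176-115056475, plus strand: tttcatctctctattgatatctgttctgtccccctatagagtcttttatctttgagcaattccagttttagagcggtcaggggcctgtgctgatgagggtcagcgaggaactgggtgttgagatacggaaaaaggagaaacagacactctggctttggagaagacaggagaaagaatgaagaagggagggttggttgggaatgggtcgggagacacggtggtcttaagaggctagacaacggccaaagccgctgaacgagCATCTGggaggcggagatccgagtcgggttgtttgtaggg
Tal1 second start, chr4:115057561-115057860, plus strand: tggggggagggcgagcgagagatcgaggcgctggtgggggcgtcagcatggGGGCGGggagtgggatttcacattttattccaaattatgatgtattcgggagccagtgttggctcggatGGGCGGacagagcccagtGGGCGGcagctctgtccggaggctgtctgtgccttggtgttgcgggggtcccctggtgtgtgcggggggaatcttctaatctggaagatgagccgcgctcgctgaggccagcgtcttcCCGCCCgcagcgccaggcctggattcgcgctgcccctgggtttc
Tal2, chr4:53779451-53779750, plus strand: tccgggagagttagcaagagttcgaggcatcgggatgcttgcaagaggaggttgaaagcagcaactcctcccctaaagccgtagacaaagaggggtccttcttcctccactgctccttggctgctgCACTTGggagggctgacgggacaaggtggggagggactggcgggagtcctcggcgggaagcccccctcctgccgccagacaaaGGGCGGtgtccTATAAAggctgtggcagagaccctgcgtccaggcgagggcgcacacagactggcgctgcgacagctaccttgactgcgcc
Pou4f1, chr14:104467950-104468249, minus strand: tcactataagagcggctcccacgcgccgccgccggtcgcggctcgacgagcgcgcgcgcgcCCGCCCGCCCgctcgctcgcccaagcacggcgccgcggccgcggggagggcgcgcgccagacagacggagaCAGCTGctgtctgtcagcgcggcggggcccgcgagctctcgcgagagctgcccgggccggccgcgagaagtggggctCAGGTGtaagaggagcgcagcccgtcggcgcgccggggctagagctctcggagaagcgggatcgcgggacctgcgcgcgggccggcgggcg

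A GC box occurs in Pax7, Pou4f1, Tal2 and the second Tal1 start, and in 35.7% of the 32851 promoters of the table. An E-box occurs in Tal2, Pou4f1 and the first Tal1 start and in 72.3% of all promoters, and the Pax7 window has none. Tal2 alone of the 11 member promoters has a TATAAA, which begins 30 bases before the start site (position -30), against 13.6% of all promoters. Neither TAATTA nor TAATCC occurs in any of the 11, and they occur in 5.29% and 7.06% of all. The overlapping GC boxes of Pou4f1 sit in a window of 78.3% G and C with 57 CG pairs, where the median promoter has 52.7% and 7. These are matches of letters in short windows and say nothing of binding.

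The genes below the filter were read as values only. En1 signal was 5.32 in wild type and 9.005 in the knockout at E9.5, 0.503 and 0.891 at E10.5, and 0.581 and 7.81 at E12.5. En2, its paralogue, had 7.55 and 9.30, 13.5 and 1.20, and 0.538 and 3.76. Every En1 and En2 value was under the median of all values, so the ratio between them at E12.5 rests on dim readings at both ends. On the log2 scale En1 differed by 0.39, 0.08 and 1.02, and En2 by 0.17, -1.38 and 0.54. Neither met the 2-fold rule, which asks for a brighter value above the median.

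Pax5, the boundary gene that also directs B cell development, went the other way. Its brighter probe set gave 31.2 and 19.0 at E9.5, 15.9 and 3.10 at E10.5, and 21.5 and 7.19 at E12.5, wild type first. The knockout array was the lower one at each age (-0.56, -1.22 and -1.03), and 1 of the 6 values exceeded the median of all values. The second Pax5 probe set lay between 0.631 and 2.52. Pax8 ran from 11.1 to 19.2 on its brighter probe set, with differences of 0.30, 0.17 and -0.03, and from 1.55 to 13.1 on the other, with -0.46, -0.11 and -0.49. No boundary gene of the Pax or Engrailed families with a probe set was at least 2-fold apart with a value above the median at any age.

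**Figure D2:**
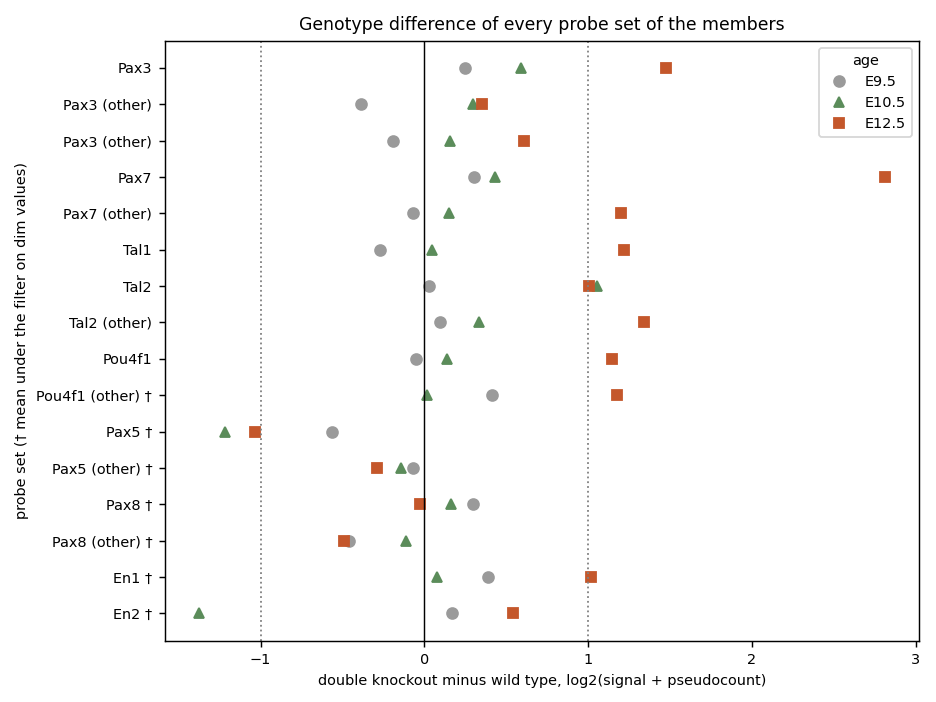
Knockout minus wild type, on the log2(signal + pseudocount) scale, for all 16 probe sets of the members at E9.5 (circles), E10.5 (triangles) and E12.5 (squares). "Other" marks a probe set that does not stand for its gene, a dagger one below the filter, and dotted lines 2-fold; the E12.5 squares of Pax7, Tal1, Tal2, Pou4f1 and the brightest Pax3 probe set lie at or beyond 1.

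Counted by age, 0 of the 5 tested members met the 2-fold rule at E9.5, where 0.694% of all tested genes were higher by it and 0.469% lower. At E10.5 Tal2 alone met it, higher in the knockout, as did 0.415% of tested genes, while 0.802% were lower. At E12.5 all 5 met it, all higher in the knockout, against 0.369% of tested genes (0.216% were lower). With arrays scaled to a common trimmed mean Tal2 no longer met it, with the mean of all probe sets Pax3 did not, and with a pseudocount of 32 only Pax7 did. Scaling moved the split of all tested genes: at E10.5 it was 46 higher and 89 lower, but 75 and 34 on the values as deposited, and at E12.5 41 and 24, but 76 and 24 as deposited. The medians of the 5 were 0.03, 0.43 and 1.22 beside 0.01, -0.01 and 0.02 over all tested genes. These genes were listed with earlier results of these data in view, so counts and medians describe them and support nothing further. Without the knockout array of E12.5, all 5 still lay above the filter, with means, taken on the log2 scale, that correspond to signals between 41.4 for Pou4f1 and 99.5 for Pax3. Of the 9 probe sets of these 5 genes that were above the filter, 4 were higher in the knockout at E9.5 and all 9 at each later age, beside 50.7%, 50.1% and 52.9% of all 19593 probe sets above the filter at the respective ages. At E12.5, 7 of the 9 were higher by the 2-fold rule, as were 0.327% of those 19593. Probe sets of a gene share its transcripts and are not replicates.

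**Figure D3:**
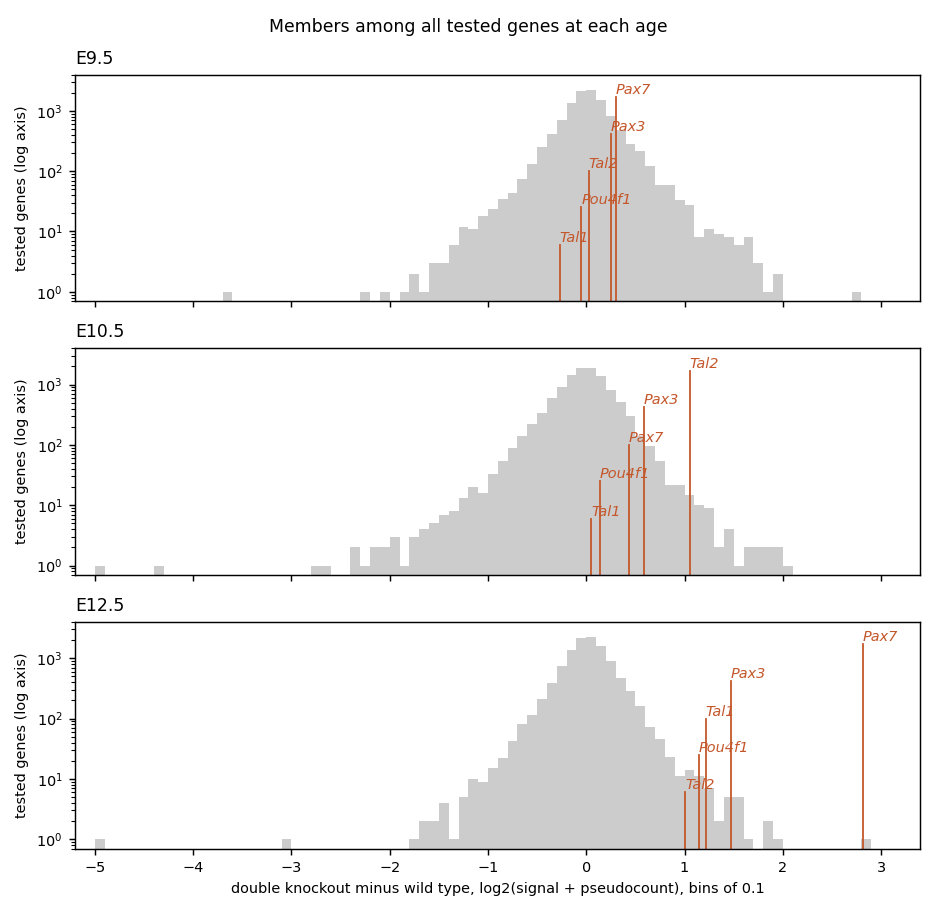
Histograms of knockout minus wild type over 11097 tested genes (bins of 0.1 on the log2 scale, number of genes on a log axis) at each age, with the 5 tested members as labelled lines whose heights carry no meaning. At E9.5 the members lie within the bulk of genes, and at E12.5 they lie between 1.004 for Tal2 and 2.81 for Pax7, the right end of the distribution.

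The ranks of Pax7, Tal1 and Pou4f1 among tested genes were nearest the top at E12.5. That of Tal2, on its brighter probe set, was near it from E10.5. Counted from the highest difference, Pax7 ranked 1329, 554 and 1 over the ages in order. Tal1 ranked 9899, 4333 and 23, and Pou4f1 7065, 2812 and 31. Tal2 ranked 5262, 43 and 49. For comparison, 90% of tested genes differed by between -0.38 and 0.43 at E12.5.

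The comparison across ages asked which members differed between knockout and wild type alike at every age. Pax3, Pax7 and Tal2 were higher in the knockout at all 3 ages, as were 13.1% of tested genes. Their mean differences were 0.77 ± 0.22, 1.18 ± 0.40 and 0.69 ± 0.22 (moderated SE, 3 pairs). Those of Tal1 and Pou4f1 were 0.33 ± 0.25 and 0.41 ± 0.24. None of the 5 passed limma's test with age as a block (adjusted p from 0.953 for Pax3 to 0.999), and 3 had an unadjusted p under 0.05, as had 521 of the 11097 tested genes. With adjusted p-values 0.018% of tested genes were higher and 0.0541% lower. An effect that differs between ages counts as error in this fit. Without the E9.5 pair, limma passed 3 members, Pax7 (1.62, adjusted p = 0.00165), Tal2 (1.03, adjusted p = 0.0262) and Pax3 (1.03, adjusted p = 0.0429), beside 22 higher genes in all. Without the E12.5 pair the mean difference of Tal1 was -0.11.

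Whether the genotype difference at E12.5 was unlike that at the earlier ages was tested directly, as the E12.5 difference minus the mean of the E9.5 and E10.5 differences. The age was picked knowing that midbrain genes had stood apart at E12.5. The contrast was 2.45 ± 0.28 for Pax7, 1.33 ± 0.33 for Tal1, 1.10 ± 0.39 for Pou4f1, 1.05 ± 0.32 for Pax3 and 0.47 ± 0.49 for Tal2 (moderated SE). No member passed over all genes (limma adjusted p = 0.506 for Pax7 and 0.9997 for the others), and 0% of tested genes did. Unadjusted, 4 members had a p under 0.05, as had 402 of the 11097 tested genes. A single degree of freedom, between E9.5 and E10.5, lies behind this error before moderation. The Pax7 call depended on scaling. On the values as deposited 13 genes passed, with Pax7 among them (2.61, adjusted p = 5.26e-09), and over the remaining alternatives its adjusted p ran from 0.111 to 0.99999.

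Development was then read within each genotype, from E9.5 to E12.5. In wild type 4 of the 5 tested members, Pax3, Pax7, Tal1 and Tal2, were at least 2-fold lower at E12.5, as were 14.2% of tested genes. In the knockout 1 was, Pax3, against 12.9%. Wild-type Pax7 at E12.5 had 8.26% of its E9.5 signal, and the knockout 70.3%. For Tal1 these shares were 43.7% and 137%, for Tal2 35.8% and 77.5%, and for Pou4f1 49.6% and 127%. Pax3 kept 2.92% in wild type and 11.3% in the knockout. The contrast of those changes between genotypes is the same set of numbers as the genotype differences above and adds no evidence. Over both genotypes, Pax3 fell by 3.49 ± 0.27 (limma adjusted p = 6.55e-06), Pax7 by 1.74 ± 0.49 (adjusted p = 0.0122) and Tal2 by 0.83 ± 0.27 (adjusted p = 0.0223), in a test by which 37% of tested genes were lower and 25.7% higher at E12.5. Tal1 (-0.32 ± 0.31, adjusted p = 0.386) and Pou4f1 (-0.28 ± 0.30, adjusted p = 0.431) did not pass. The Pax3 call held under each alternative in which this test was run. Those of Pax7 and Tal2 were lost with the mean of all probe sets and without a trend in the variance, and that of Tal2 also on unscaled values, with a common trimmed mean and without the filter.

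Marker lists of tissues that also express the members were summed on each array. RNA from fewer cells of a type and less RNA per cell cannot be told apart in such bulk samples. Neural crest and head mesenchyme markers (11 genes, among them Twist1, Prrx1 and Alx1), relevant to Pax3 and Pax7, summed to 2510 in wild type and 3363 in the knockout at E9.5. They summed to 2720 and 3290 at E10.5, and to 449 and 343 at E12.5. At E12.5 this sum was lower in the knockout, and 8 of 9 tested markers had a negative difference. The exception was the neural crest gene Sox10 (0.44). Foxd3 and Alx4, below the filter, differed by 0.09 and 0.58. In both genotypes the sum was also lower at E12.5 than at E9.5, as Pax3 was. The part of neural crest and head mesenchyme in the Pax3 and Pax7 values was not tested.

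For Tal1 the blood lists matter. Erythroid markers (8 genes) summed to 13980 in wild type and 17440 in the knockout at E12.5, 1.25 times, with the embryonic globins Hba-x and Hbb-bh1 at 0.71 and 0.70. The embryonic globin Hbb-y, which made up most of both sums, differed by 0.10 (9487 and 10153.5). Hba-a1, below the filter, differed by -0.34. Gata1, the erythroid factor that works with Tal1, differed by 0.57 (signal 11.9 and 20.7), while Klf1, Alas2 and Epb42 differed by -0.05, 0.05 and 0.12. The part of red cells in the Tal1 difference was not tested. Endothelial markers (9 genes) summed to 552 and 547, a ratio of 0.992. Of the Tal1 adaptors, Ldb1 differed by -0.93, -0.38 and -0.17 over the ages and Lmo2 by -0.41, -0.24 and -0.49, both lower in the knockout throughout, and neither passed (limma adjusted p = 0.953 and 0.999).

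Sensory ganglion and placode markers (6 of 10 with a probe set), relevant to Pou4f1, summed to 492 in wild type and 619 in the knockout at E9.5, 630 and 908 at E10.5, and 739 and 590 at E12.5. Of the 4 tested, 2 were higher and 2 lower at E12.5 (median 0.03), and the bright Neurod1 (637 and 475) made up most of that sum. The lower Neurod1 value in the knockout sets the direction of the sum at E12.5. From E9.5 to E12.5, over both genotypes, Neurod1 rose by 3.11, while Eya1, Eya2 and Isl2 differed by -2.42, -1.63 and -0.59. The sum thus mixes genes with opposite courses over age. The part of sensory ganglia in the Pou4f1 values was not tested. Hindbrain and cord markers (6 of 8) were dim on all arrays, 21.4 to 95.1 in sum, with no Hox gene above the filter. They summed to 31.2 in wild type and 21.4 in the knockout at E12.5. Forebrain markers summed to 1999 and 1762 at that age, and to 1482 and 848 at E10.5. Optic stalk and eye markers (7 of 8) summed to 202.5 and 212.7 at E12.5. How far back each dissection reached cannot be read from the labels, and its part in these differences was not tested.

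**Figure D4:**
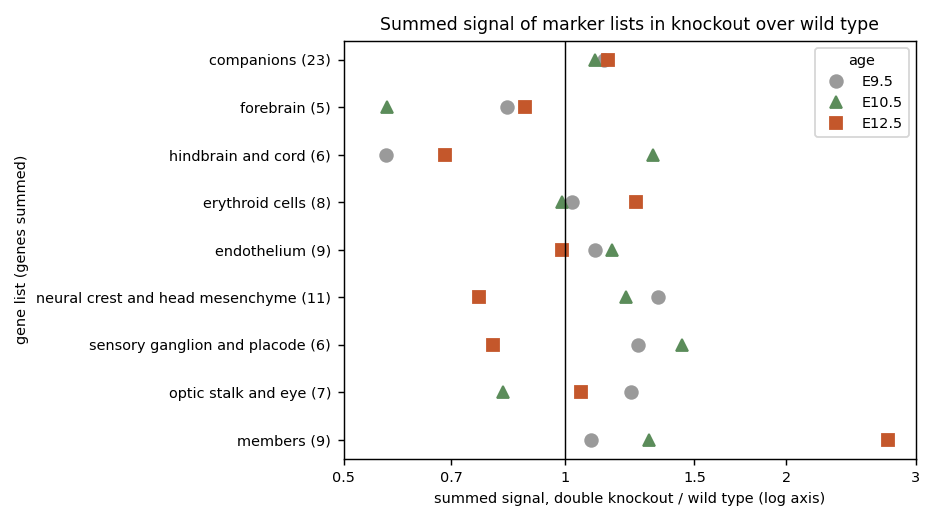
Summed signal in the double knockout divided by that in wild type (log axis) for each marker list, with the number of genes summed in brackets, at E9.5 (circles), E10.5 (triangles) and E12.5 (squares). At E12.5 the sum over the 9 members stands at 2.75 times wild type, with Pax7 giving 10.9 of 153 in wild type and 116 of 420 in the knockout. The companions, 23 further genes of the midbrain and the boundary, stand at 1.145. The neural crest, sensory and hindbrain lists lie below 1 and the erythroid list at 1.25. Neurod1 makes up most of the sensory sum at that age, and Hbb-y most of the erythroid one.

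Most further genes of the midbrain and the boundary did not meet the 2-fold rule. In a list of 24, 23 have a probe set and 12 passed the filter. Of these 12, 2 met the 2-fold rule at E12.5, both higher in the knockout, as were 0.369% of all tested genes. At E10.5 1 was higher by it, against 0.415% of tested genes, and at E9.5 1 was lower, against 0.469%. The list was chosen with earlier results of these data known. Across ages 0 of the 12 passed limma's test, and 7 had an unadjusted p under 0.05 (521 of 11097 over all tested genes). The median differences of the 12 were 0.34, -0.00 and 0.08. The genes higher at E12.5 were Ebf1, a helix-loop-helix factor of young neurons (87.6 in wild type and 219 in the knockout, 1.26), whose other probe sets lay under 2-fold (0.16 to 0.97), and Lmx1b, a LIM-homeodomain factor of the boundary and of dopaminergic progenitors (9.91 and 26.7, 1.02). Lmx1b also met the rule at E10.5 (17.1 and 41.8, 1.03), though its second, dimmer probe set gave -0.63, 0.04 and -0.16. Lhx5 was the lower one at E9.5 (123 and 58.1, -1.01). Below the filter, Bhlhe23 read 3.37 and 26.3 at E12.5 (1.73), though it was lower in the knockout at E9.5 (-0.46) and E10.5 (-0.74). Also below it, Sox14 read 2.89 and 12.7 at E12.5 (1.03), and Dmbx1 19.6 and 4.11 (-1.30). Dmbx1 was lower in the knockout at each age.

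Of the signals that organise the boundary, Wnt1 and Fgf8 lay below the filter and Fgf17 above it. Over the ages, wild type first, Fgf17 read 33.2 and 49.9, 66.4 and 52.4, and 40.8 and 35.4 (0.51, -0.31 and -0.17). The second Fgf17 probe set, also above the filter, differed by 0.17, -0.51 and -0.84, with 38.7 and 18.7 at E12.5. Fgf18, below the filter, differed by 0.71, -0.20 and -0.83. Wnt1 read 28.8 and 18.4 at E9.5, 12.5 and 2.66 at E10.5, and 11.2 and 7.28 at E12.5, wild type first, lower in the knockout each time. Fgf8, which the rostral forebrain also makes, read 26.1 and 36.5, 58.3 and 46.3, and 2.06 and 9.59. Otx2, the homeodomain factor of forebrain and midbrain, was bright on all arrays: 424 and 392, 416 and 649, and 307 and 468 (-0.11, 0.63 and 0.60). Gata2, a zinc-finger factor that acts ahead of Tal genes in midbrain GABAergic neurons, read 78.7 and 93.9, 138 and 162, and 38.4 and 57.3 (0.24, 0.22 and 0.51). The second Gata2 probe set differed by 0.40, -0.21 and 1.57, with signals of 3.58 and 23.4 at E12.5. Gata3, below the filter, read 1.08 and 15.4, 22.5 and 42.1, and 1.24 and 5.32.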

How the data were processed

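The 6 deposited columns hold probe set intensity values on a linear scale. The authors made them with MAS5, per the submitters' processing notes, with a scaling and a software release not given in the sources used here. Columns were matched to groups by their titles. Values were quantile-normalized and taken as log2(signal + 6.50). Without scaling the median difference of the genotypes was 0.08, 0.26 and 0.20 at the 3 ages. Of 45101 probe sets, the platform annotation gives 34958 a single symbol, 932 several and 9211 none that is listed. Tests used limma 3.58.1 in R 4.3.3 (lmFit, eBayes with a trend) over 11097 genes with age as a block (2 residual degrees of freedom, 9.21 after moderation), adjusted by Benjamini-Hochberg at 0.05. The fits were tested on simulated data. At one age, the 2-fold rule asked for a 2-fold difference with the brighter array above 24.0. Named were all members, further midbrain genes meeting that rule, a fixed few (Otx2, Wnt1, Fgf8, Gata2, Gata3, Lmx1b, Ldb1, Lmo2, Gata1), the remaining Pax genes and, for each tested member, the 5 genes of most similar pattern. Bhlhe23, Sox14 and Dmbx1, which lie below the filter, and Fgf17 and Neurod1 are outside that rule and were chosen after their values were seen. So were Sox10, Foxd3, Alx4, Hbb-y, Hba-a1, Eya1, Eya2, Isl2 and Fgf18. Members, lists and rules were chosen with earlier results of these data known. Alternatives changed scaling, pseudocount, filter, probe set choice, model and the ages used. The number of arrays limits the precision.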

Additional observations from a re-analysis of the deposited data

How the results depend on the processing

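Of 181 counts recomputed under an alternative, 159 stayed within 1.5 times the reported count, a reported 0 that stayed 0 being included. Most of the reported counts were 0, so this total says little about the others. The number of members meeting the 2-fold rule at E12.5 was 5 under most settings, 4 with a common trimmed mean or when a gene's probe sets were averaged, and 1 with a pseudocount of 32; the larger pseudocount shrinks every difference by construction. At E10.5 that number was 0 with a pseudocount of 32, 0 with the mean of all probe sets and 2 at 1.5-fold. Over all genes, limma's calls across ages were 2 higher and 6 lower, but 16 and 4 on the values as deposited, 22 and 50 without the E9.5 pair, and 0 and 0 without a trend, without the age block or without the E12.5 pair. The test of E12.5 against the earlier ages passed 1 member on the values as deposited. Without the E9.5 pair, limma passed 3 members and 1 further midbrain gene as higher in the knockout. Without the E12.5 pair the mean difference of Tal1 was -0.11. The count of members lower at E12.5 than at E9.5 was 1 with the mean of all probe sets, 1 without a trend in the variance, and 5 when each probe set was tested by itself, which counts some genes more than once.

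Among the further midbrain genes, the one lower at E9.5 became 0 on the values as deposited and 0 with a pseudocount of 32. The one higher at E10.5 became 0 with a common trimmed mean, 0 with a pseudocount of 32 and 0 with averaged probe sets. Those higher at E12.5 numbered 1 with a pseudocount of 32 and 1 with averaged probe sets. At 1.5-fold, 2 were higher at E9.5, 2 higher and 2 lower at E10.5, and 4 higher and 1 lower at E12.5. Apart from the pseudocount, the fold and the count per probe set, the cause of these changes was not tested. The filter without the knockout array of E12.5 was chosen after seeing the data, and it left the counts of members as they were. Genotypes were paired by age in the reported fit. Beyond that, no paired analysis was possible because each group is a single array and the labels give no replicate numbers. Dim signal limits En1, En2, Pax5 and Pax8, whose values lie near or under the median of all probe sets.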

Other observations

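Some genes outside the list followed a member closely over the 6 arrays. Likeness was Pearson's r of log2 values over the 6 arrays, among the 2938 tested genes with an SD of at least 0.5, and is given as a description, since all genes share the same arrays. Closest to Pax7 were AI463170 (0.969), the Iroquois homeobox genes Irx3 (0.9645) and Irx5 (0.940), Smtnl2 (0.9285) and the serotonin receptor gene Htr1b (0.926). At E12.5 AI463170 was 1.18 higher in the knockout, Irx3 and Irx5 1.49 and 1.67, Smtnl2 1.80 and Htr1b 1.57. Selection by likeness to Pax7 on these same arrays favours such a gap, so it is no separate evidence. Closest to Pax3 were Grhl3 (0.998), Ptpn13 (0.9965), Matn3 (0.996), Plac1 (0.996) and Yap1 (0.995). Their differences at E12.5 were 0.58, 0.84, 1.14, 0.48 and 0.40, so a close match need not carry a 2-fold genotype difference. Tal1 was followed by Gm6787 (0.904), Irx5 (0.8955), AI463170 (0.847), the globin gene Hba-x (0.817) and Mgarp (0.815). Tal2 was followed by Cpt2 (0.935), Slc15a2 (0.930), Kcna1 (0.918), Lmx1b (0.917) and Gimap6 (0.9115). Pou4f1 had weaker matches: Gkn3 (0.844), Cd300c2 (0.824), Susd4 (0.818), D930016D06Rik (0.812) and Art1 (0.811). Among the members, Pax7 and Tal1 correlated at 0.909 and Pax3 and Pax7 at 0.861, while Pou4f1 and Pax3 stood at 0.189.

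The remaining Pax genes gave no counterpart to the E12.5 differences of Pax3 and Pax7. Pax6, the paired-box gene of cortical and eye progenitors, read 473 and 344 at E9.5, 398 and 294 at E10.5, and 543 and 550.2 at E12.5, wild type first (-0.45, -0.43 and 0.02). Its second-brightest probe set gave -0.20, -0.01 and -0.16. Pax1, Pax4 and Pax9 were below the filter. The brightest Pax9 probe set reached 49.7 in wild type and 31.96 in the knockout at E10.5 and 9.16 and 14.1 at E12.5.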
